A study of Mus musculus with 6 samples.

Results

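The semaphorin, plexin, neuropilin, ephrin, Eph, Slit and Robo genes of the mouse were taken as 1 group by gene symbol. The rule on symbols used no measured value, but the group was chosen with earlier results of these data known. The symbols were those of the class 3 to class 7 semaphorins, the plexins, the neuropilins, the ephrins and their Eph receptors, Slit1 to Slit3 and Robo1 to Robo4. Of 32285 genes listed, 60 matched, and they fall into 15 families by role. The data are single nucleus RNA counts from the prelimbic (PL) area of the medial prefrontal cortex of male C57BL/6 mice, and all groups share this sex and strain. The 6 libraries were each pooled from 3 males that were not brothers. Run males had been raised by dams with a running wheel in the cage and Sed males by dams in standard cages, from postnatal day 2 to weaning at P21. After weaning the males were group-housed (GH) or socially isolated (SI) and had no wheel. Cohort 1 gave 1 Run GH and 1 Sed GH library, from males that had been in tube tests of dominance and were picked by their rank, at the top or bottom of their own group, and cohort 2 gave 1 library from each combination of maternal environment and housing, from males without such tests or ranks. The labels give P21 as the age, whereas the study's methods place the tissue in adulthood. Lists of 6 values below are in the order Run GH and Sed GH of cohort 1, then the cohort 2 libraries as Run GH before Sed GH and Run SI before Sed SI.

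These families are best known for steering axons in the embryo, and many of them are still transcribed in the adult cortex, where several act on dendritic spines and synapses. Secreted class 3 semaphorins bind neuropilins, which pass the signal on through plexins, while membrane-bound semaphorins mostly bind plexins directly. Ephrins sit in the membrane of one cell and Eph receptors, the largest family of receptor tyrosine kinases, in that of its neighbour, and signals can run both ways. Slits are large secreted proteins that repel growth cones through Robo receptors. In most of these systems the signal reaches the cytoskeleton through small GTPases.

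Nuclei numbered 8163, 5142, 9936, 5826, 8531 and 4997 in the 6 libraries, with a median of 1637 to 6250 unique molecular identifiers (UMIs, which mark single RNA molecules) per nucleus. The deepest and the shallowest medians were both Sed GH libraries, of cohort 1 and cohort 2 respectively. Droplets without a nucleus held a median of 960 and 1093 UMIs in cohort 1, or 17.2% and 17.5% of the median nucleus, and 4.25% to 7.66% of it in cohort 2. Pairs of libraries shared 5 to 22 cell barcodes. Cells were grouped in each cohort apart, with the guidance genes left out of the genes used for grouping, and each class is named only for its resemblance to the markers of that type (layer 5 extratelencephalic-like, and so on). Marker genes of each class had a higher summed level in it than over all nuclei in every library. Single markers did not in L5 IT (4 of 5 higher in every library), deep Oprk1-type (3 or 4 of 5), PV (5 of 6 in both cohort 1 libraries) and VIP nuclei (3 of 6 in Sed GH of cohort 2). Vascular leptomeningeal (VLMC) nuclei came from cohort 1 alone, 23 and 24 of them. Microglia reached 20 nuclei in 1 library and were not ranked. One small cluster of cohort 1 with striatal markers was left out of the classes.

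Promoters are printed here for 2 pairs of genes whose Run to Sed ratios over all pyramidal nuclei moved in opposite directions between the cohorts: Robo2 and Epha4 on one side, Sema4a and Sema5a on the other. Sema5a was called in that sum alone. In layer 6 nuclei its log2 ratio was lower in both cohort 2 pairs (-0.16 and -0.27) than in cohort 1 (-0.04). Each line holds the 250 bases before the transcription start, read 5′ to 3′ on the gene's strand, from RefSeq on GRCm38.p6, with each CG pair in capitals. Of the 60 genes, 53 had an entry.
Robo2 (chr16:74411826-74412075, minus strand): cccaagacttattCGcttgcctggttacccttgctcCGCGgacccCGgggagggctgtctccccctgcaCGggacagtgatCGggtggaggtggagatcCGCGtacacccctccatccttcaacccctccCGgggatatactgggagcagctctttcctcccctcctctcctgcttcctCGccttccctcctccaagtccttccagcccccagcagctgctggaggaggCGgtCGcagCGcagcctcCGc
Epha4 (chr1:77515089-77515338, minus strand): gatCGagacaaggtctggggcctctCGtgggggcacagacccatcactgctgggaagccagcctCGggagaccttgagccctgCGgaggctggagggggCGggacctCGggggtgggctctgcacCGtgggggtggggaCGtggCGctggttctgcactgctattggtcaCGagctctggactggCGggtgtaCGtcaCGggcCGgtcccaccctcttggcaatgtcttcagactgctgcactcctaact
Sema4a (chr3:88461183-88461432, minus strand): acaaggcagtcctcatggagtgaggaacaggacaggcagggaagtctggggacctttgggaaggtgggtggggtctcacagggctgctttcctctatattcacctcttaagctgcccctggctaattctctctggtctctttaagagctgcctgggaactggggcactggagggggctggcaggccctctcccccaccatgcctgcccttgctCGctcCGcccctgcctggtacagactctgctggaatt
Sema5a (chr15:32244563-32244812, plus strand): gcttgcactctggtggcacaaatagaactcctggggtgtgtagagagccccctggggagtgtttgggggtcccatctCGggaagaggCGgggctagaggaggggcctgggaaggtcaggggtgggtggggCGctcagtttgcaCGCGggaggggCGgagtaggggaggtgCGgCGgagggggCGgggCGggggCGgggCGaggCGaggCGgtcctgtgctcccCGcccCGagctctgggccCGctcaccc
Robo2 and Epha4 each held 14 CG pairs, Sema5a held 17 and Sema4a held 2, beside a median of 6 over 32851 windows of this length. The letters TATAAA were in none of the 4 windows on either strand, and 12.4% of all windows held them. The window nearest the annotated gene start is shown. Epha4 and Sema5a have 1 window listed, Robo2 has 3 (4 to 14 CG pairs) and Sema4a has 4 (2 to 13), so the count depends on the start chosen, and which start these nuclei use was not measured.

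All 60 genes had at least 1 count, and 53 had at least the 100 counts over all nuclei that were asked for before a gene was ranked. The 7 below were Sema3b with 38 counts, Sema3g with 17, Efna4 with 27, Epha1 with 29, Epha2 with 9, Ephb4 with 80 and Robo4 with 15. Together the group took 6938 to 8465 CPM of a library, where CPM is the count of a gene scaled to the summed UMIs of the nuclei it was counted in. Introns were counted, so long genes gather more counts: the median guidance gene spans 39.9 kb beside 12.3 kb over all genes, and 27 of the 60 exceed 100 kb beside 8.72% of all genes. Per 100 kb of gene, the highest levels were those of Epha10 (294 CPM), an Eph receptor without kinase activity, Efnb3 (214), Epha5 (200), Ephb6 (186), which also lacks kinase activity, and Robo1 (175). Slit3 followed at 148 CPM per 100 kb, above Slit1 at 66.3 and Slit2 at 46.3. Among the neuropilins Nrp1 (76.8) stood above Nrp2 (38.7), and all ranked class 3 semaphorins were below 20, led by Sema3e at 18.6. Several members lie close together, with Robo1 and Robo2 0.846 Mb apart on chromosome 16 and Sema3d, Sema3a and Sema3e in a row on chromosome 5.

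For each of the 53 genes the cell class with the highest mean level was found over the libraries that held at least 20 nuclei of the class. For 20 genes this class ranked first in every library that could be ranked, and for 33 it did not. The 20 were Epha4 in mid-layer pyramidal nuclei, Epha5, Epha10 and Robo1 in layer 5 extratelencephalic (L5 ET) nuclei, Slit1 in layer 5 near-projecting (L5 NP) nuclei, Plxnc1 in PV interneurons, Sema3c in VIP interneurons, Epha3 and Robo2 in NPY/Lamp5 interneurons, Sema4b and Plxnb1 in astrocytes, Efnb3 and Plxnb3 in oligodendrocytes, Sema5b and Sema6d in oligodendrocyte precursors (OPC), and Sema3a, Slit2, Plxna2, Plxnb2 and Efnb1 in VLMC nuclei. No gene ranked first in layer 5 intratelencephalic (L5 IT) nuclei by its mean. These are descriptions without a test, since classes were built from the same nuclei. With every nucleus thinned to 1000 UMIs, 11 of the 20 genes kept this rank, and Epha3, Epha4, Epha10, Efnb3, Sema4b, Plxna2, Plxnb1, Plxnb2 and Plxnc1 kept the class of highest mean but not first place in every library. With the UMI minimum doubled, VLMC and OPC had too few nuclei to be ranked, so that the 5 VLMC genes, Sema5b and Sema6d lost their class, and Efnb3 and Plxnc1 lost first place in some library. Plxnc1 also lost its rank with at least 1000 genes per nucleus, with free RNA subtracted and with the guidance genes among the clustering features. Epha4 lost its rank in the first of these settings and Plxnb2 in the last. The VLMC ranks rest on 2 libraries, and those of Plxnb2 and Efnb1 on 9 and 4 counts in that class.

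**Figure D1:**
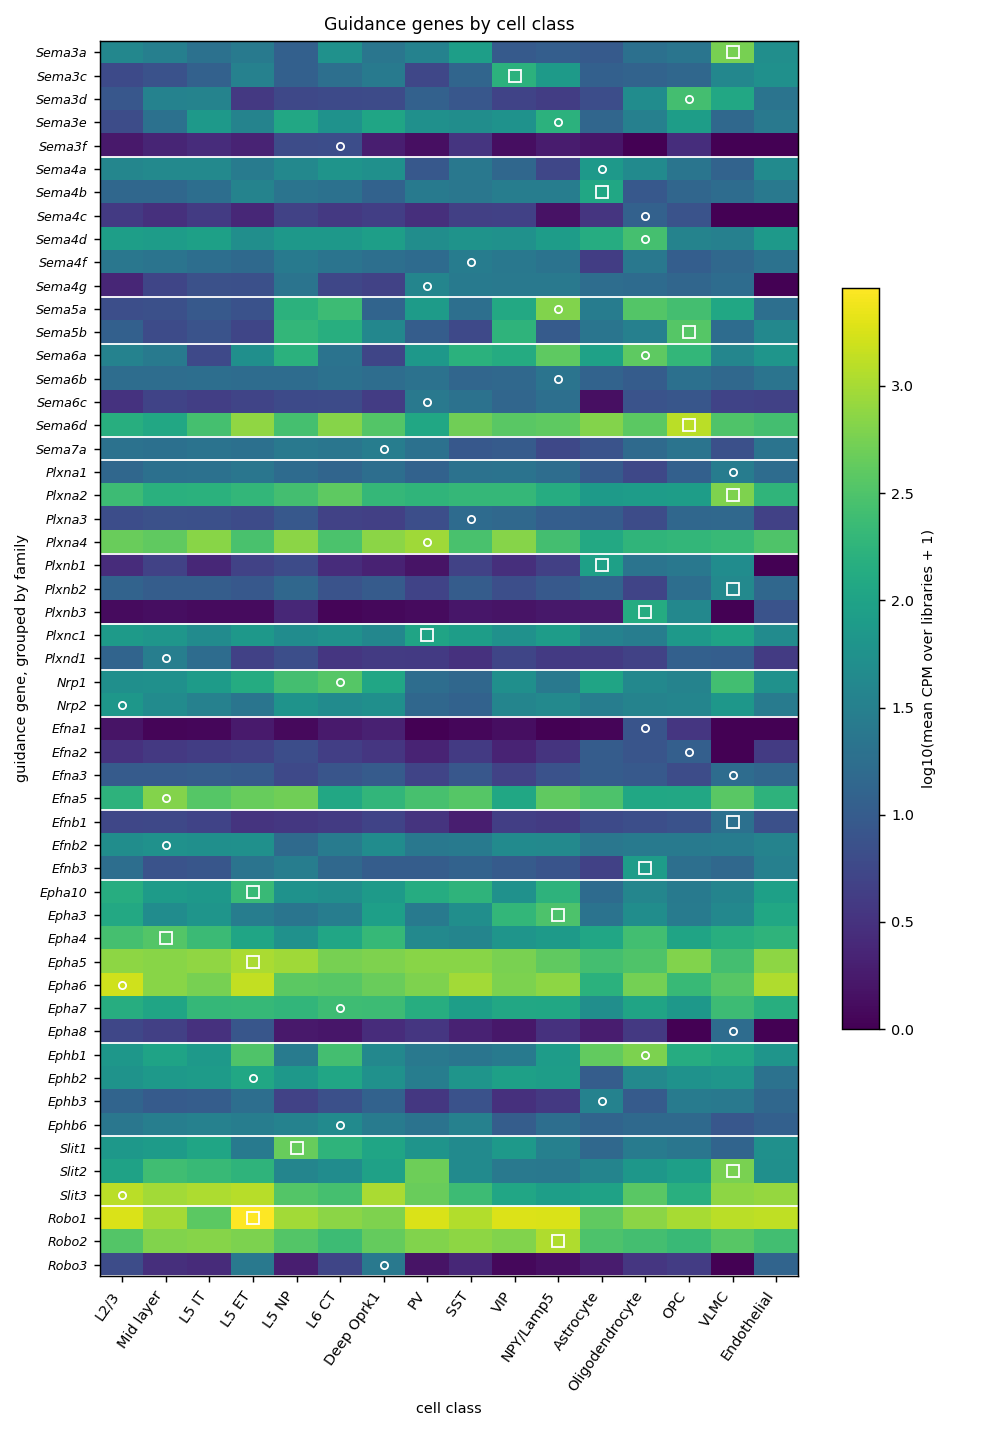
Mean level of 53 guidance genes (rows, grouped by family) in each cell class (columns), as log10 of the mean CPM over libraries plus 1. White squares mark the class that ranked first in every library that could be ranked (20 genes) and white circles the class with the highest mean for the other 33.

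The Robo and the Slit genes, each taken as a family, held the most counts after the EphA receptors. Robo1, the receptor with the highest count of all members (264843), was at 3001, 2747, 3012, 2672, 2751 and 3029 CPM in L5 ET nuclei. Its highest library among VIP interneurons was at 2148 CPM and among PV interneurons at 2351 CPM, so these classes did not overlap L5 ET. In L5 IT nuclei, of the same layer, Robo1 was at 262 to 530 CPM. Robo2 was highest in NPY/Lamp5 interneurons, at 1136, 739, 1089, 1337, 1013 and 1265 CPM. Its values in SST interneurons, 533 to 855 CPM, overlapped these over the 6 libraries, although within each library NPY/Lamp5 was 1.15 to 1.84 times the next class. Robo3, a receptor known for midline crossing, was low, at 16.0 to 30.9 CPM in deep Oprk1-type pyramidal nuclei and 15.7 to 29.7 CPM in L5 ET nuclei.

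The 3 Slit ligands differed in where they were high. Slit1 was at 527, 723, 357, 332, 343 and 411 CPM in L5 NP nuclei. It was at 229, 318, 109, 117, 145 and 151 CPM in layer 6 corticothalamic (L6 CT) nuclei, with every library below the lowest of L5 NP, and at 12.4 to 44.3 CPM in L5 ET nuclei. Slit2 was at 625 and 523 CPM in the VLMC nuclei of cohort 1. In PV interneurons, which rest on 3069 counts, it was at 601, 458, 495, 411, 538 and 502 CPM, whereas NPY/Lamp5 interneurons held 47 counts, of which 73.1% would be expected from free RNA at the level of the empty droplets. Slit3, the Slit with the most counts, was spread over upper and deep pyramidal classes. In L2/3 it was at 1591, 1648, 1119.6, 988, 1142 and 969.9 CPM, in L5 ET at 1061 to 1320 CPM and in L5 IT at 931 to 1362 CPM, and these ranges overlap. In L6 CT nuclei Slit3 was at 208 to 331 CPM.

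Eph receptors and their ephrin ligands followed. Epha6, the EphA receptor with the most counts, was at 1792, 1667, 1507, 1263, 1974 and 1566 CPM in L2/3 nuclei and at 1222 to 1727 CPM in L5 ET nuclei, which overlap. Epha5 was at 788, 715, 1107, 1332, 1128 and 1196 CPM in L5 ET nuclei. Both cohort 1 libraries were below all 4 of cohort 2 there, and also in L5 NP nuclei, where Epha5 was at 678, 626, 997, 1136, 981 and 1099 CPM. Epha4, which binds ephrins of both kinds, was at 410.5, 344, 320.2, 306, 318 and 334 CPM in mid-layer nuclei, which is 1.09 to 1.23 times the next class of each library. In L2/3, next by the mean, it was at 259 to 333 CPM, and the ranges overlap. Epha10 was at 198 to 259 CPM in L5 ET nuclei and at 120 to 217 CPM in SST interneurons. Epha3 was at 252 to 353 CPM in NPY/Lamp5 interneurons and at 131 to 264 CPM in VIP interneurons. Epha7 was highest by its mean in L6 CT nuclei (205 to 291 CPM), ranking first there in 4 of 6 libraries.

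Among the EphB receptors, Ephb1 had the most counts. Its highest mean was in oligodendrocytes, with 563 and 865 CPM in cohort 1 and 255, 460 and 855 CPM in Run GH, Run SI and Sed SI of cohort 2, on 417 counts in all. Astrocytes followed at 304 to 596 CPM, and SST interneurons were at 7.53 to 42.7 CPM. Ephb2 was at 85.9 to 156 CPM in L5 ET nuclei, with cohort 1 above cohort 2. Of the ligands, Efna5, a GPI-anchored ephrin-A, was at 881, 761, 626, 549, 561 and 594 CPM in mid-layer nuclei and at 75.5 to 164 CPM in VIP interneurons. Efnb2, the ephrin-B with the most counts, was at 48.6, 52.4, 62.0, 46.7, 62.2 and 53.8 CPM in the same mid-layer nuclei and at 10.6 to 22.7 CPM in L5 NP. Efnb3 stood apart as an oligodendrocyte gene (52.7 to 112 CPM over 5 libraries, on 62 counts), while 84.9% of the 16 counts in astrocytes would be expected from free RNA.

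The ranked class 3 semaphorins, which are secreted, each had a different class of highest mean level. Sema3a, a repellent that acts through Nrp1, was the one member at least 4 times above its next class in every library that could be ranked. It was at 697 and 437 CPM in the VLMC nuclei of cohort 1, on 114 counts, which is 6.76 to 8.29 times the next class. SST interneurons came next by the mean, at 84.1, 64.7, 84.9, 109, 76.6 and 92.4 CPM. Sema3c was at 124, 144, 222, 151, 155 and 200.1 CPM in VIP interneurons, every library above the highest of NPY/Lamp5 (91.6 CPM), and at 1.65 to 10.1 CPM in PV interneurons, where 69.7% of its counts would be expected from free RNA. Sema3e, the class 3 semaphorin with the most counts and a ligand that binds plexin D1 without a neuropilin, was at 180.0, 98.3, 167, 183, 187 and 185 CPM in NPY/Lamp5 interneurons and at 83.6 to 153 CPM in L5 NP nuclei. In L2/3 nuclei, the class with its lowest mean, it was at 1.30 to 8.91 CPM. Sema3d had its highest mean in OPC, at 167 to 390 CPM over 5 libraries, but did not rank first there in every library.

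The other semaphorins are bound to the membrane or span it. Sema4d, a ligand of plexin B1, was at 108 and 348 CPM in the oligodendrocytes of cohort 1 and at 255, 342 and 294 CPM in Run GH, Run SI and Sed SI of cohort 2. In 4 of these 5 libraries no other class was higher. Sema4b was at 77.3, 89.5, 122, 117, 109 and 163 CPM in astrocytes, and no library of L5 ET nuclei exceeded 40.7 CPM. Sema5a, which carries thrombospondin repeats, was at 679, 531, 673, 696, 594 and 653 CPM in NPY/Lamp5 interneurons. Oligodendrocytes had the next highest mean, with 92.5 to 674 CPM over 5 libraries and a higher value than NPY/Lamp5 in Sed SI. Sema5a was at 213 to 309 CPM in OPC and at 200 to 281 CPM in L6 CT nuclei, but at 2.60 to 12.6 CPM in L2/3, where 75.4% of its counts would be expected from free RNA. Its relative Sema5b was at 270 to 533 CPM in OPC, 131 to 311 CPM in L5 NP and 95.6 to 209 CPM in L6 CT, beside 1.32 to 10.7 CPM in L5 ET. Sema6d, a ligand of plexin A1, was at 1143 and 1026 CPM in the OPC of cohort 1 and at 1200.2, 1377 and 1506 CPM in Run GH, Run SI and Sed SI of cohort 2, above all values of L5 ET (708 to 820 CPM). Sema7a, the one member that is held by a lipid anchor among the semaphorins, was low throughout, with its highest mean in deep Oprk1-type nuclei (37.2, 36.1, 19.9, 25.3, 24.0 and 26.6 CPM).

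Plexins and neuropilins are the receptors of these ligands. Plxna4 was at 1173, 1296, 709, 829, 756 and 714 CPM in PV interneurons, followed by deep Oprk1-type pyramidal nuclei (526 to 944 CPM). Both cohort 1 libraries were above the 4 of cohort 2 in each of these classes. Plxna2 was at 354 to 484 CPM in L6 CT nuclei and at 709 and 507 CPM in VLMC nuclei. Plxnb1, the receptor of Sema4d, was an astrocyte gene (105, 204, 54.6, 53.1, 61.3 and 61.6 CPM), with cohort 1 above cohort 2. Plxnb3 ranked highest in the oligodendrocyte lineage, at 101 to 179 CPM in oligodendrocytes and 16.4 to 60.0 CPM in OPC over 5 libraries each. Plxnb2, with the most counts of the B plexins (2093), had its highest mean in VLMC on 9 counts. Plxnc1, the receptor of Sema7a, was at 137, 126, 70.3, 88.3, 86.2 and 107 CPM in PV interneurons and within 46.2 to 123 CPM in SST interneurons, which overlap. VLMC nuclei of cohort 1 were next by the mean, at 108 and 93.6 CPM on 21 counts. They had the highest mean with free RNA subtracted or without Sed GH of cohort 1. Plxnd1 was highest by its mean in mid-layer nuclei, at 47.5, 62.0, 14.5, 14.5, 20.3 and 18.1 CPM, again with cohort 1 above cohort 2. Nrp1 was at 323, 297, 376, 408, 318 and 364 CPM in L6 CT nuclei, every library above those of L5 NP (236 to 275 CPM), while SST interneurons held 81 counts, of which 67.6% would be expected from free RNA. Nrp2 was at 54.5 to 75.1 CPM in L2/3 and at 48.9 to 82.4 CPM in L5 NP.

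**Figure D2:**
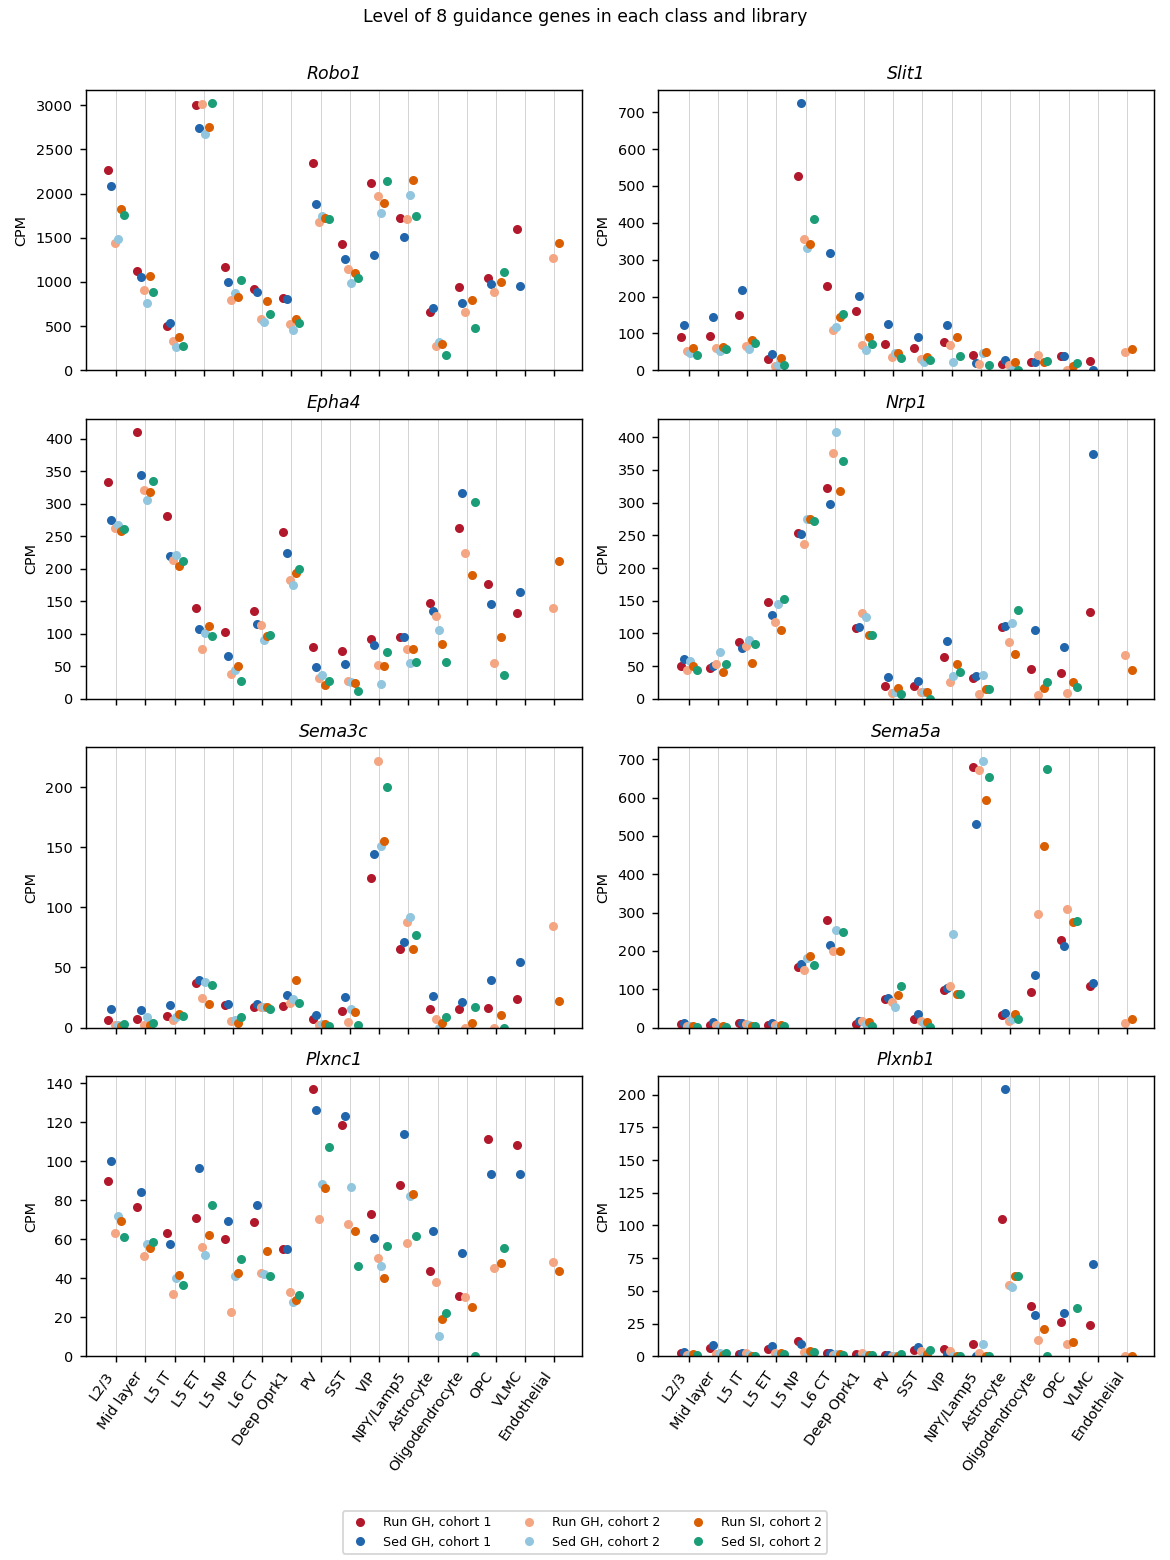
Level in CPM (linear axis from 0) of 8 guidance genes in each cell class, with 1 point for each library that held at least 20 nuclei of the class. Robo1 in L5 ET, Slit1 in L5 NP and Sema3c in VIP nuclei stand above all other classes in every library, while Plxnc1 in PV and SST nuclei overlaps.

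The first comparison asked whether Run and Sed males differed in these genes. Counts were summed per library over the nuclei of a class and tested with edgeR's quasi-likelihood test over the 6 libraries, with cohort, maternal environment and housing as terms. In 8 fits (all pyramidal nuclei, L2/3, layer 5, layer 6, PV, SST, VIP and astrocytes) 30 to 53 guidance genes passed the filter on low counts, which made 343 tests. None was called at an adjusted p below 0.05, while 22 had an unadjusted p below 0.05 with edgeR and 7 with DESeq2, which also called 0. Of all genes, 4.08% to 7.42% per fit had an unadjusted p below 0.05 with edgeR. Over all genes the called share was 0.0% in pyramidal, L2/3 and layer 6 nuclei, 0.0334% in layer 5, 0.0981% in PV, 0.0498% in SST, 0.0134% in VIP and 0.0705% in astrocytes. The median log2 ratio of Run to Sed over the guidance genes was between -0.07 and 0.04 in the 8 fits. With 1 library per condition and cohort, 2 residual degrees of freedom remain.

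The member with the smallest unadjusted p of each fit is given as a value, not as a call. In pyramidal nuclei this was Epha7, an EphA receptor with roles in dendrite shape, at 191, 146, 207, 174, 187 and 159 CPM scaled for composition (TMM). Run was above Sed in each of the 3 library pairs, by 0.29 ± 0.08 (SE, edgeR adjusted p = 0.672) on the log2 scale. Epha7 was also the member of smallest p in SST interneurons, at 140.3, 86.7, 88.0, 68.9, 85.4 and 59.9 CPM (0.57 ± 0.19, adjusted p = 0.789). In L2/3 it was Sema6a, at 47.5, 34.4, 40.4, 25.9, 32.0 and 22.1 CPM and again higher in Run in the 3 pairs (0.54 ± 0.13, adjusted p = 0.567). Values lower in Run were found for Sema3c in layer 5, at 23.4, 28.9, 12.8, 21.5, 13.1 and 19.5 CPM (-0.52 ± 0.15, adjusted p = 0.639). Sema4c in layer 6, at 2.36, 3.94, 1.57, 4.30, 2.14 and 4.15 CPM, rested on 107 counts (-0.99 ± 0.35, adjusted p = 0.835), and Sema4g in PV interneurons, at 40.9, 69.3, 19.0, 24.3, 30.8 and 39.9 CPM, on 219 (-0.56 ± 0.24, adjusted p = 0.828). Each of these 3 was lower in Run in all 3 pairs. Efnb2 in VIP interneurons, at 68.4, 46.1, 40.4, 11.9, 64.3 and 48.1 CPM, rested on 141 counts (0.60 ± 0.32, adjusted p = 0.986). Its largest pair ratio, 1.72 on the log2 scale, was in the GH pair of cohort 2, whose Sed library held very few of these counts. Plxnb1 in astrocytes was at 111, 218, 55.2, 53.7, 63.4 and 66.1 CPM (-0.69 ± 0.22, adjusted p = 0.535), a difference that lay in cohort 1, since the cohort 2 pairs differed by 0.04 and -0.06 on the log2 scale.

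The second comparison, of SI with GH, rests on cohort 2, where alone males were isolated. Again 0 of 343 tests passed, 25 had an unadjusted p below 0.05 with edgeR and 3 with DESeq2, which called 0. Of all genes, 0.975% (pyramidal) to 4.21% (astrocytes) were below 0.05 with edgeR, and the guidance genes had a larger share in each of the 8 fits, a difference that was not tested. Of all genes, 0.0% were called in pyramidal, L2/3, layer 5, layer 6, PV and VIP nuclei, 0.00997% in SST and 0.0353% in astrocytes. The smallest adjusted p of a guidance gene in any fit was 0.9997. By unadjusted p the leading members were Epha6 in L2/3, at 1960.4, 1784, 1387, 1258, 1862 and 1568 CPM (0.37 ± 0.12 as the log2 difference with its SE), and Sema3a in layer 5, at 19.0, 17.2, 25.2, 26.8, 12.5 and 20.7 CPM (-0.71 ± 0.22). Both SI libraries lay on one side of both GH libraries of cohort 2 for these genes. With the cohort 1 GH libraries included this did not hold. For Epha6 these were above both SI libraries (1960.4 CPM) or between them (1784 CPM), and for Sema3a both were between them (19.0 and 17.2 CPM). Plxnd1 led in pyramidal nuclei, at 23.2, 22.1, 5.84, 5.95, 8.45 and 8.05 CPM (0.49 ± 0.15), and Robo1 in layer 6, at 938, 916, 523, 510.0, 678 and 598 CPM (0.30 ± 0.11). Within cohort 2 the SI libraries of both genes were above the GH libraries, but the cohort 1 GH libraries were higher still. In interneurons the counts were low. Ephb6 led in PV on 112 counts, at 18.5, 31.5, 22.5, 27.8, 10.5 and 11.6 CPM (-1.17 ± 0.43). Slit2 led in SST on 261 counts, at 69.0, 71.3, 26.6, 23.0, 51.6 and 28.7 CPM (0.79 ± 0.34), and Nrp2 in VIP on 96, at 39.4, 26.0, 22.4, 35.8, 48.3 and 60.1 CPM (1.10 ± 0.49). For Ephb6 and Nrp2 both SI libraries lay outside the range of all 4 GH libraries, and for Slit2 they did not. In astrocytes the leading member was Plxnb2 on 58 counts, at 20.1, 21.7, 1.84, 0, 19.8 and 9.45 CPM (3.26 ± 1.16), a fitted value that depends on the prior count because 1 GH library held none.

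The count of 0 for Run against Sed depended on cohort 1. In the 4 libraries of cohort 2 alone, a fit chosen after this was seen, 13 calls were made among the guidance genes, 3 in pyramidal nuclei, 3 in L2/3 and 7 in layer 5, with Epha7 and Slit2 called in more than 1 fit. This fit has 1 residual degree of freedom. Many other genes were called as well, namely 14.5% of all genes in pyramidal nuclei, 10.3% in L2/3, 9.37% in layer 5, 7.83% in layer 6, 1.48% in PV, 0.517% in SST, 0.22% in VIP and 0.464% in astrocytes. The 3 of 52 guidance genes tested in pyramidal nuclei, 3 of 48 in L2/3 and 0 of 49 in layer 6 were thus below the share of all genes. The 7 of 51 in layer 5 were above it. Epha7 rose in Run in pyramidal nuclei (0.24 ± 0.07, adjusted p = 0.0337) and in L2/3 (0.39 ± 0.11, adjusted p = 0.0151). In L2/3 Sema6a (0.59 ± 0.16, adjusted p = 0.00856) and Efnb1 (1.24 ± 0.42, adjusted p = 0.0391) rose as well. The Efnb1 call rests on few counts. Its group-housed pair of cohort 2 held 39 (Run) and 4 (Sed) there, and the isolated pair 40 (Run) and 11 (Sed). Slit2 fell in pyramidal nuclei (-0.28 ± 0.08, adjusted p = 0.0166) and in layer 5 (-0.39 ± 0.08, adjusted p = 0.00162), and Ephb3 fell in pyramidal nuclei (-0.56 ± 0.16, adjusted p = 0.0285). In layer 5, Nrp2 rose (0.45 ± 0.14, adjusted p = 0.0357) and its relative Nrp1 fell (-0.39 ± 0.09, adjusted p = 0.00346), as did Sema3c (-0.65 ± 0.17, adjusted p = 0.0123), a ligand that uses neuropilins. Epha5 (-0.23 ± 0.07, adjusted p = 0.0226), Ephb1 (-0.33 ± 0.09, adjusted p = 0.0128) and Ephb2 (-0.33 ± 0.10, adjusted p = 0.0353) fell there too. The cohort 1 pair of layer 5 had the other sign for Slit2 (log2 ratio 0.273), Nrp2 (-0.247), Nrp1 (0.161), Epha5 (0.105) and Ephb1 (0.036). It had the same sign for Sema3c (-0.297) and Ephb2 (-0.228). In cohort 2 both Run libraries also had more UMIs per nucleus than the Sed library of the same housing (medians of 3397 against 1637 and 4033 against 3600) and a higher mitochondrial share (0.328% against 0.109% and 0.329% against 0.165%), and the part of this in the calls was not tested. Leaving out either cohort 1 library from the fit of 6 gave 13 calls each time, because the other library then adds nothing to the Run to Sed difference.

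For SI against GH, cohort 2 alone gave 2 calls, Epha6 in L2/3 (0.37 ± 0.09, adjusted p = 0.0385) and Sema3a in layer 5 (-0.75 ± 0.16, adjusted p = 0.0378). The called share of all genes was 0.0117% in pyramidal nuclei, 0.124% in L2/3, 0.223% in layer 5, 0.0971% in layer 6, 0.0% in PV, 0.0117% in SST, 0.0508% in VIP and 0.0464% in astrocytes. Without the Run GH or without the Sed GH library of cohort 1 the count was 3, Slit1 in layer 5 being the third.

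The cohorts differed in how Run compared with Sed. A term for the difference between cohorts in the log2 ratio of Run to Sed was called in 38 of 360 tests, on 18 genes. The ratio was higher in cohort 2 than in cohort 1 in 19 of the 38 calls and lower in 19. An unadjusted p below 0.05 was reached in 97 tests, and by 4.81% (astrocytes) to 23.3% (pyramidal) of all genes. Calls numbered 15 of 54 genes tested in pyramidal nuclei, where 10.5% of all genes were called, 3 of 50 in L2/3 (4.85% of all genes), 11 of 51 in layer 5 (7.24%), 6 of 51 in layer 6 (6.85%), 2 of 40 in PV (1.17%), 1 of 42 in SST (0.808%) and 0 in VIP (0.332%) and astrocytes (0.0921%). The share in L2/3 was thus near that of all genes, and those in pyramidal and layer 5 nuclei were above it. DESeq2 called 4, all in pyramidal nuclei: Robo2, Slit1, Epha4 and Sema5b. The term leaves 1 residual degree of freedom, and cohort 1 adds 1 library of each kind to it. In 28 of the 38 both cohort 2 pairs went opposite to the cohort 1 pair, and in 28 the ratio of the cohort 1 pair was larger in size than both of cohort 2. The 38 were chosen by this difference between cohorts, so both counts follow in part from the choice. Among 53 guidance genes in pyramidal nuclei, called or not, 21 had both cohort 2 pairs opposite to the cohort 1 pair.

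Robo2, whose promoter is printed above, was called in 5 fits. In pyramidal nuclei it was at 672, 462, 394, 425, 434 and 473 CPM. Run was above Sed in cohort 1 (log2 ratio 0.54) and below it in both pairs of cohort 2 (-0.11 and -0.13), a difference of -0.65 ± 0.12 (SE, edgeR adjusted p = 0.000177). In layer 5 it was at 844, 598, 506, 559, 532 and 615 CPM (-0.67 ± 0.12, adjusted p = 9.07e-06). Layer 6 (-0.70 ± 0.16, adjusted p = 0.00036), PV (-0.85 ± 0.18, adjusted p = 0.000706) and SST nuclei (-0.78 ± 0.19, adjusted p = 0.0121) had the same direction. In each of these 5 fits Run GH of cohort 1 was the highest of the 6 libraries. In L2/3 the term was -0.40 ± 0.17 (SE, edgeR adjusted p = 0.183). The neighbouring Robo1 was not called in any fit.

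Its ligands did not move as one. Slit1 went the other way, with Sed GH of cohort 1 the highest library, at 129, 204, 66.9, 62.0, 85.0 and 76.7 CPM in pyramidal nuclei (0.80 ± 0.13, adjusted p = 0.000103). It was called in L2/3 (0.70 ± 0.21, adjusted p = 0.036), layer 5 (0.57 ± 0.16, adjusted p = 0.00853) and layer 6 (0.51 ± 0.17, adjusted p = 0.0421) as well. Within L5 NP nuclei alone Slit1 was at 527 CPM in Run GH and 723 CPM in Sed GH of cohort 1, and within L6 CT at 229 and 318 CPM. Slit2 had the direction of Robo2, at 196, 154, 117, 138, 118 and 148 CPM in pyramidal nuclei (-0.62 ± 0.13, adjusted p = 0.00131) and with a like term in layer 5 (-0.66 ± 0.14, adjusted p = 0.000449). Slit3 was not called.

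**Figure D3:**
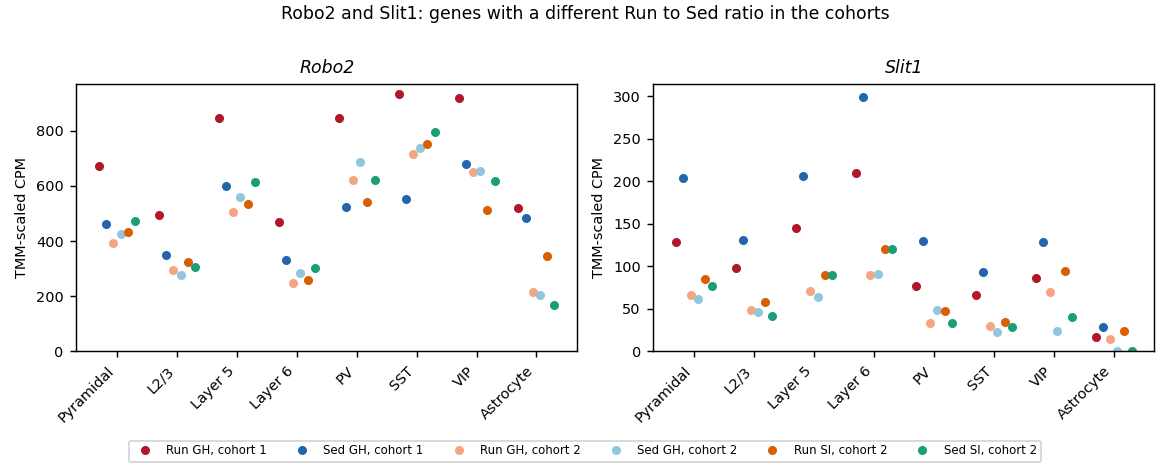
TMM-scaled CPM (linear axis from 0) of Robo2 (left) and Slit1 (right) in the 8 fits, with 1 point for each library. In pyramidal nuclei Robo2 is highest in Run GH of cohort 1 (672 CPM) and Slit1 in Sed GH of cohort 1 (204 CPM).

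Of the EphA receptors and ephrin-A ligands, the called ones (Epha3, Epha4, Epha5, Epha7 and Efna5) had a lower Run to Sed ratio in cohort 2 than in cohort 1. The others, Epha6 and Epha10 among them, were not called, and Efna3 had a term of the other sign in pyramidal nuclei (0.46 ± 0.26, adjusted p = 0.303). Epha4 was at 318, 227, 186, 205, 182 and 209 CPM in pyramidal nuclei (-0.65 ± 0.12, adjusted p = 0.000461) and was also called in layer 5 (-0.58) and layer 6 (-0.50). Epha3 was called in pyramidal nuclei (-0.59) and L2/3 (-0.81), Epha5 in pyramidal nuclei (-0.36) and PV (-0.81), and Epha7 in layer 5 (-0.62), where the 3 pairs had one sign and cohort 1 the larger ratio (0.79 beside 0.16 and 0.18). Efna5, a ligand of these receptors, was at 491, 368, 279, 293, 265 and 315 CPM (-0.57 ± 0.12, adjusted p = 0.00169) and was called in layer 5 (-0.44) and layer 6 (-0.57). The called genes of the EphB side had a higher ratio in cohort 2, with a term for Ephb6 of 0.81 in pyramidal nuclei, 0.72 in layer 5 and 0.87 in layer 6, and for Efnb3 of 0.87 in pyramidal nuclei and 1.01 in layer 5. The others were not called. In pyramidal nuclei both cohort 2 pairs had a lower log2 ratio than cohort 1 for Ephb3 (-0.388 and -0.638 beside -0.011) and Efnb2 (-0.013 and 0.105 beside 0.155).

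Each semaphorin that was called had a higher Run to Sed ratio in cohort 2 than in cohort 1, which is a difference in ratio and not a higher level in cohort 2. The other semaphorins were not called. Among them Sema3a had a lower log2 ratio in both cohort 2 pairs (0.17 and -0.36) than in cohort 1 (0.32) in pyramidal nuclei, as did Sema4d and Sema6a. In pyramidal nuclei Sema5b was at 33.4, 72.2, 29.7, 27.1, 34.8 and 28.9 CPM (1.32 ± 0.17, adjusted p = 1.20e-06) and Sema5a at 41.3, 66.6, 42.3, 38.2, 41.9 and 41.9 CPM (0.77 ± 0.16, adjusted p = 0.00116), and for both Sed GH of cohort 1 stood above the other libraries. Sema4a was at 46.2, 74.1, 34.6, 33.3, 34.0 and 35.7 CPM there (0.67 ± 0.16, adjusted p = 0.00482). Sema4g (1.45) and Sema3f (1.41) were called there too, Sema4a again in layer 6 (0.78) and Sema5b in layer 5 (0.94). In pyramidal nuclei Sema4g was low, at 2.67 to 7.62 CPM on 773 counts, as was Sema3f, at 1.23 to 3.47 CPM on 360 counts. Of the receptors, Plxnb2 had a higher ratio in pyramidal nuclei (0.80) and L2/3 (1.47), and in layer 5 Nrp2 had a higher (0.70) and Nrp1 a lower ratio (-0.55).

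**Figure D4:**
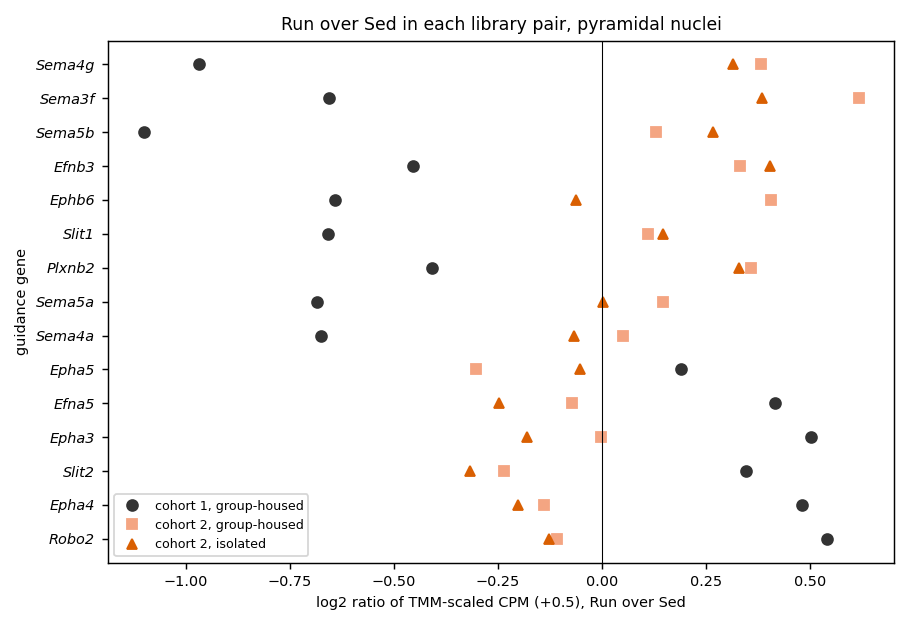
Log2 ratio of Run to Sed in pyramidal nuclei, from TMM-scaled CPM plus 0.5, for the 15 guidance genes whose ratio differed between the cohorts (rows), with 1 point for each of the 3 library pairs. The genes were chosen by this difference. The cohort 1 pair lies outside the range of the cohort 2 pairs, for example at 0.54 beside -0.11 and -0.13 for Robo2. For Epha5 it is at 0.19 beside -0.30 and -0.05.

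Other measures differed between the cohort 1 libraries too. In cohort 1, L6 CT nuclei made up 9.90% of pyramidal nuclei for Run GH and 22.7% for Sed GH. In cohort 2 they made up 17.9% for Run GH and 11.8% for Sed GH, and 15.5% for Run SI and 14.0% for Sed SI. Mid-layer nuclei, in which Epha4 and Efna5 had their highest mean, made up 14.8% for Run GH and 10.5% for Sed GH of cohort 1, while in cohort 2 they made up 16.3% for Run GH and 18.4% for Sed GH and 14.3% for Run SI and 18.8% for Sed SI, the direction of the terms of both genes. Within mid-layer nuclei of cohort 1, Epha4 was at 410 CPM in Run GH and 344 CPM in Sed GH, and Efna5 at 881 and 761 CPM. Over all pyramidal nuclei the same pair was at 318 and 227 TMM-scaled CPM for Epha4 and at 491 and 368 for Efna5. In mid-layer nuclei of cohort 2, Efna5 was at 626 and 549 CPM under GH and 561 and 594 CPM under SI, Run before Sed. The cohort 2 values of Epha4 in these nuclei are given above. Pyramidal clusters that could not be given a class made up 16.1% of pyramidal nuclei for Run GH and 12.1% for Sed GH in cohort 1 and 0.0% in cohort 2. One of them (3.46% and 4.58%) was led by mitochondrial and other abundant transcripts. The fits of L2/3, layer 5 and layer 6 hold no nuclei of these clusters. Sema5a, Sema5b, Slit1 and Sema4a are all high in L6 CT nuclei, whose shares had the direction of the terms of these genes. Robo2 and Efna5 had their lowest mean of the pyramidal classes there (235 and 117 CPM), so the shares had the direction of their terms too. The layer 6 fit pools L6 CT with deep Oprk1-type nuclei, where Robo2 (434 CPM) and Efna5 (188 CPM) were higher. Ephb6 was lower in deep Oprk1-type nuclei (26.5 CPM) than in L6 CT (43.7 CPM). Deep Oprk1-type nuclei made up 8.88% of pyramidal nuclei for Run GH and 9.09% for Sed GH of cohort 1. Within L6 CT nuclei of cohort 1, Sema5a was higher in Run GH (281 CPM) than in Sed GH (214 CPM), opposite to the pyramidal sum. Sema5b was at 187 and 209 CPM there and kept the direction of the sum, with a larger difference in L5 NP (211 and 311 CPM) and deep Oprk1-type nuclei (31.5 and 64.5 CPM). Sema4a kept that direction in L6 CT nuclei too (56.2 and 102 CPM). Gene length moved with the direction as well, since the 6 genes called lower in pyramidal nuclei had a median span of 323 kb and the 9 called higher one of 25.2 kb. Over all genes of that fit, those of 100 kb or more had a median term of -0.13 and shorter ones 0.04. Free RNA was more abundant in cohort 1, and with its expected counts subtracted 37 calls were found. The part of layer makeup, clusters without a class, gene length and depth in these results was not tested.

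Whether the Run to Sed ratio differed between SI and GH was tested by a further term, and 0 of 360 tests were called, 18 having an unadjusted p below 0.05 with edgeR and 1 with DESeq2, which called 0. Of all genes, 0.321% (pyramidal) to 4.10% (astrocytes) were below 0.05 with edgeR. The called share of all genes was 0.0181% in PV interneurons and 0.0% in the other 7 fits. The smallest adjusted p of a guidance gene was 0.632, for Epha3 in VIP interneurons, at 255, 138, 199.7, 179, 165 and 281 CPM (-1.44 ± 0.43 as the log2 difference with its SE). Its log2 ratio of Run to Sed was 0.88 in cohort 1, and 0.16 under GH and -0.76 under SI in cohort 2. The GH side of the term includes cohort 1, and the part of a difference between cohorts in it was not tested.

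Genes that work with these receptors or carry their signal inward were taken as a list of 60, among them collapsin response mediators, Pak and Lim kinases, chimaerins, srGAPs and cofilin. In the 8 fits 47 to 59 of them were tested for Run against Sed, and 0 were called for Run against Sed or SI against GH. The smallest unadjusted p for Run against Sed was that of Cfl1, the actin-severing cofilin (0.46 ± 0.10, adjusted p = 0.672 in pyramidal nuclei), followed by Chn2 in L2/3 (0.73 ± 0.20, adjusted p = 0.605) and Vav2 in layer 6 (-0.76 ± 0.23, adjusted p = 0.802). For SI against GH it was that of Dpysl5, a collapsin response mediator, in layer 5 (0.44 ± 0.14, adjusted p = 0.9999), followed by Vav3 in L2/3 (-0.71 ± 0.23, adjusted p = 1) and Anks1 in layer 6 (0.40 ± 0.16, adjusted p = 0.9999). The cohort term was called for 8 of 60 in pyramidal nuclei (4 with a higher and 4 with a lower ratio in cohort 2), beside 10.5% of all genes. It was called for 1 higher and 3 lower of 58 in L2/3 (4.85% of all genes), for 2 higher and 4 lower of 58 in layer 5 (7.24%) and for 1 higher and 5 lower of 58 in layer 6 (6.85%). These counts are near the shares of all genes, so the genes named next are single values and not a result about the list. Srgap3, a GTPase-activating protein of the srGAP family that binds Robo receptors, had a lower ratio in layer 6 (-0.80 ± 0.16, adjusted p = 3.70e-05), with the direction of Robo2. Pak1, a kinase that Rac activates, had a lower ratio in pyramidal nuclei, L2/3, layer 5 and layer 6 (-0.75, -0.80, -0.77 and -0.71), as did Chn1, the chimaerin that acts below Epha4 (-0.56, -0.55, -0.52 and -0.56). Limk2, which acts on cofilin, had a higher ratio in layer 5 (0.83 ± 0.19, adjusted p = 0.000932).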

How the data were processed

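Per the labels and the study's methods, nuclei of the PL area were run on the 10x 3′ V3 chemistry, and the deposited matrices hold raw UMI counts of all barcodes, which the authors made with Cell Ranger 6.0.0 (a version taken from the submitters' processing notes) on mm10 with introns included. No deposited annotation of cells was used here.

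From these counts, barcodes with 500 to 4000 genes, at most 1% mitochondrial counts and a UMI count of at least the 99th percentile of a library's largest barcodes divided by 10 were kept. Nuclei were clustered per cohort with scanpy 1.11.5 (Pearson residuals, theta 100; 3000 variable genes; 35 components; 20 neighbours; Leiden 0.6, or 1.5 for non-neuronal nuclei) with the guidance genes left out, and classes were named from marker lists. Marked doublets (1.09% to 6.75% of nuclei) were kept, and left out in an alternative. Levels need at least 20 nuclei per class and library.

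Counts summed per class and library were tested in R 4.3.3 with edgeR 4.0.16 (TMM scaling, filterByExpr, quasi-likelihood test, Benjamini-Hochberg adjustment over all genes of a fit, threshold 0.05), and with DESeq2 1.42.0 as an alternative. Layer 5 pooled the IT, ET and NP classes, and layer 6 the CT and deep Oprk1-type classes. All tests are two-sided. The replicate number in the labels is the cohort, which marks a shared batch of mice, and deviations of same-cohort libraries correlated (r = 0.488 to 0.73 over 8 classes), so the cohort stayed in the fit as a block. The code was tested on simulated data before use.

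Values by library are given for genes called for Run against Sed or SI against GH over the 6 libraries (there were none), for the gene of smallest p per fit in these 2 contrasts, for the gene with most counts per family and for any gene at least 4 times above its next class. Further genes are given by library too, among them Slit1, Robo2, Epha4, Epha5 and Sema4b, which meet none of these rules. The guidance genes, the partner list and the markers were chosen with earlier results of these data known. Each library pools 3 mice, and no 2 libraries share maternal environment, housing and cohort. The p-values thus rest on how far libraries depart from the terms of a fit, since no spread between like pools was measured. In the fits for Run against Sed and SI against GH, this departure includes any difference of the Run effect between cohorts or housings. The tube tests, the choice of cohort 1 males by rank and the processing of a cohort cannot be told apart.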

Additional observations from a re-analysis of the deposited data

Results flagged for a closer look

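The log2 ratio of Run to Sed differed between cohort 2 and cohort 1 for 38 gene and class combinations, each tested by the interaction term of the edgeR fit. Values are the ratio in cohort 2 minus that in cohort 1, so that a positive value means a higher ratio in cohort 2. Cohort 1 enters with 1 Run and 1 Sed library. In pyramidal nuclei the ratio was higher in cohort 2 for Sema5b (1.32), Slit1 (0.80), Sema5a (0.77), Sema4g (1.45), Ephb6 (0.81), Sema4a (0.67), Efnb3 (0.87), Plxnb2 (0.80) and Sema3f (1.41), and lower for Robo2 (-0.65), Epha4 (-0.65), Slit2 (-0.62), Efna5 (-0.57), Epha3 (-0.59) and Epha5 (-0.36). In L2/3 nuclei the ratio was higher in cohort 2 for Plxnb2 (1.47) and Slit1 (0.70), and lower for Epha3 (-0.81). In layer 5 the ratio was higher in cohort 2 for Sema5b (0.94), Slit1 (0.57), Ephb6 (0.72), Efnb3 (1.01) and Nrp2 (0.70), and lower for Robo2 (-0.67), Slit2 (-0.66), Epha7 (-0.62), Epha4 (-0.58), Nrp1 (-0.55) and Efna5 (-0.44). In layer 6 the ratio was higher in cohort 2 for Sema4a (0.78), Ephb6 (0.87) and Slit1 (0.51), and lower for Robo2 (-0.70), Efna5 (-0.57) and Epha4 (-0.50). Sema5a was not called in layer 6, where its log2 ratio was lower in both cohort 2 pairs (-0.16 and -0.27) than in cohort 1 (-0.04). In PV interneurons it was lower in cohort 2 for Robo2 (-0.85) and Epha5 (-0.81). In SST interneurons it was lower in cohort 2 for Robo2 (-0.78). Robo2 was called in 5 fits and Slit1 in 4, and 12 of the 18 genes in more than 1. The fits share nuclei, since pyramidal nuclei include the layers, and are not independent.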

How the results depend on the processing

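Calls for Run against Sed stayed at 0 with DESeq2, with RLE size factors, with a minimum of 1000 genes or a doubled UMI minimum per nucleus, without doublets, with free RNA subtracted, with the guidance genes among the clustering features and in group-housed libraries alone. Without a filter on low counts there was 1 (Epha7 in layer 5), and in cohort 2 alone, a setting added after the data were seen, 13. Leaving out 1 library at a time gave 0 to 13 calls for Run against Sed and 0 to 3 for SI against GH, the highest counts without either cohort 1 library. SI against GH had 2 calls in cohort 2 alone and 0 under the remaining settings. Without the cohort as a replicate block there were 0 calls for Run against Sed, 0 for SI against GH and 0 for the difference of the Run effect between housings, but the SI to GH log2 difference turned negative for Plxnd1 in pyramidal nuclei (-0.80), Robo1 in layer 6 (-0.18) and Slit2 in SST interneurons (-0.27), since GH then includes cohort 1. The cohort term had 4 calls with DESeq2 and 27 to 43 under the other settings. No library could be left out of the interaction fits, which would leave no residual degrees of freedom. The 16 named fold changes kept their direction in 255 of 258 other settings. The count of genes with 1 highest class in every library was 14 after thinning to 1000 UMIs and 19 to 24 otherwise, but 11 of the 20 genes were kept after thinning and 11 with the doubled UMI minimum. Free RNA bounds low levels, most of all in cohort 1.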
